A study of Homo sapiens with 5 samples.

Results

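The spliceosomal small nuclear RNAs (snRNAs) and their genomic copies were described in RNA crosslinked to GFP-(GR)50 and in its controls. The members were the listed regions that the deposited annotation types as snRNA on the same strand and whose same-strand gene name starts with RNU or RNVU or is a U with a number, with 7SK RNA left out. They came to 147 of the 3147 regions of the 5 libraries and lay at 54 loci, where a locus is a set of regions that overlap on 1 strand. By family, 21 loci were U1, 20 were U2, 3 were U4, 7 were U5 and 2 were the minor snRNAs U11 and U12. The last locus was U7, which the rule takes in although U7 is not spliceosomal. By position, 23 of the loci were snRNA genes in RefSeq, 17 were pseudogenes and 14 had no RefSeq entry.

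The assay was CLIP-Seq, in HEK-293, a human embryonic kidney cell line. In it, protein and RNA are joined by ultraviolet light, the RNA is trimmed with RNase, the protein is pulled down and the RNA that stays attached is sequenced. GFP-(GR)50 is GFP fused to a run of glycine-arginine dipeptides, one of the peptides made from the expanded C9ORF72 repeat in familial ALS and frontotemporal dementia. Experiment 1 had GFP-(GR)50 replicate 1 and cells with GFP alone, at 0.04 units/ml of RNase I. Experiment 2 had GFP-(GR)50 replicate 2, cells with GFP-(GP)10 (a glycine-proline fusion) and untransfected cells, at 0.02 units/ml. All 5 libraries share the ultraviolet dose, the pull-down on GFP beads and the gel region cut at the size of the fusion, and GFP and the fusions were delivered with lipofectamine. The lists hold crosslinked regions and not expression levels, so the identity of the cells was not checked on markers. Each control is 1 library, the GFP-(GR)50 libraries come from separate experiments, and RNase amount and experiment cannot be told apart.

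Spliceosomal snRNAs are the RNA cores of the particles that remove introns from pre-mRNA. U1 pairs with the 5′ splice site, U2 pairs with the branch point, and U4, U5 and U6 join as one particle in which U6 later takes part in catalysis. U11 and U12 do the work of U1 and U2 on a rare class of introns, and U7 guides the 3′ end processing of histone pre-mRNA. Most of these RNAs carry a ring of Sm proteins and are made from several near-identical genes, with many pseudogenes beside them. A short read from such an RNA often maps to several copies at once.

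Each library has its own list of called regions, in which no region has under 5 listed reads, so a locus without a region is not a locus with 0 reads. A listed read here is an expected count: reads that map to one place, plus multimapping reads scaled by the authors. The lists held 472 regions with 30598 listed reads in GFP, 183 with 56588 in GFP-(GR)50 replicate 1, 1339 with 22519 in the untransfected library, 348 with 7468 in the GFP-(GP)10 library and 805 with 134222 in GFP-(GR)50 replicate 2. These totals are not library depths, and 43.4% to 97.1% of them lay in annotated rRNA. The 95% intervals below cover counting error only, and scaled multimapping reads are counted in them as if independent, which makes them too narrow.

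U1, U2 and U5 held nearly all of the snRNA regions, and U1 was the family seen in every library. The rule found 48 regions in the GFP library, 16 in GFP-(GR)50 replicate 1, 39 in the untransfected library, 9 in the GFP-(GP)10 library and 35 in GFP-(GR)50 replicate 2. They held 753 listed reads in the GFP library, 187 in GFP-(GR)50 replicate 1, 616 in the untransfected library, 51.4 in the GFP-(GP)10 library and 427 in GFP-(GR)50 replicate 2. The most reads were thus in a control of each experiment, and the fewest were in GFP-(GP)10, whose list also held the fewest reads. No library had a U6, U4atac or U6atac region. Each region needs 5 listed reads, so U6 reads spread over several copies below that minimum are not excluded in any library.

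Most members drew their reads from several copies. Reads that map to one place numbered 150 in the GFP library, 33 in GFP-(GR)50 replicate 1, 74 in the untransfected library, 2 in the GFP-(GP)10 library and 135 in GFP-(GR)50 replicate 2. No such read was found in 30 of 48 regions in the GFP library, 11 of 16 in GFP-(GR)50 replicate 1, 24 of 39 in the untransfected library, 8 of 9 in the GFP-(GP)10 library and 23 of 35 in GFP-(GR)50 replicate 2. For those regions the family is measured, while the copy is not. Another same-strand gene name stood beside the snRNA in 73 of the 147 regions, 39 of them CCDC200 at the U2 array on chromosome 17.

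Among U1 copies, 9 loci had a region in all 5 libraries, and no locus of another family did. RNU1-1 is a canonical U1 gene. Its regions span 16514116 to 16514290 on chromosome 1, minus strand, in hg38 as the files give it. Positions given for other loci are such spans over the libraries too, and not gene limits. RNU1-1 had 29.1 listed reads in the GFP library, 14.2 in GFP-(GR)50 replicate 1 and 31.5 in the untransfected library. It had 5.5 in the GFP-(GP)10 library and 17.8 in GFP-(GR)50 replicate 2. In experiment 1, GFP-(GR)50 replicate 1 lay below GFP. In experiment 2 the untransfected library was highest and GFP-(GP)10 lowest, with GFP-(GR)50 replicate 2 between these controls. The other 8 loci repeated this order: RNU1-2, RNU1-3, RNVU1-18, RNVU1-28, RNVU1-31, the pseudogenes RNU1-27P and RNU1-28P, and a U1 copy without a symbol on chromosome 1 (146376806 to 146376973, plus strand). Over the 9 loci the listed reads ran from 27.3 to 29.4 in GFP, 12.1 to 14.2 in GFP-(GR)50 replicate 1, 31.3 to 31.8 in the untransfected library, 5.22 to 6.89 in GFP-(GP)10 and 16.9 to 17.8 in GFP-(GR)50 replicate 2. Such narrow ranges show reads shared among the copies, and the 9 loci together held 0 to 2 one-place reads in a library. They are therefore close to 1 measurement of U1 and not 9.

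RNVU1-7, a variant U1 gene (chromosome 1, 148038751 to 148038917, minus strand), is the U1 locus with the most one-place reads in both GFP-(GR)50 libraries. Its one-place reads were 11 in the GFP library, 10 in GFP-(GR)50 replicate 1, 2 in the untransfected library and 17 in GFP-(GR)50 replicate 2, and GFP-(GP)10 had no region. Its listed reads were 24.0, 12.2, 29.7 and 22.0 in the same 4 libraries. The order of the libraries thus differs between the reads: the untransfected library was highest by listed reads and lowest by one-place reads. RNVU1-19 had 6 one-place reads in GFP, 7 in the untransfected library and 12 in GFP-(GR)50 replicate 2, with 7.79, 8.21 and 13.1 listed reads. Among the 29 loci listed in both, it is 1 of 4 with more listed reads in GFP-(GR)50 replicate 2 than in the untransfected library.

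Other U1 copies were listed in some libraries only. RNVU1-17 had 16.7 listed reads in the GFP library, 10.6 in GFP-(GR)50 replicate 1 and 12.6 in the replicate 2 library of GFP-(GR)50, with no one-place read. RNVU1-14, RNVU1-2A and the pseudogenes RNU1-136P, RNU1-67P and RNU1-89P were listed in GFP at 5.13 to 8.68 reads and in the untransfected library at 9.25 to 25.6, and in neither GFP-(GR)50 library. Of these, RNU1-67P had the most one-place reads, 7 in GFP and 8 in the untransfected library. A copy without a symbol on the contig KI270713.1 had 29.0 listed reads in the GFP library and 13.2 in GFP-(GR)50 replicate 1. In experiment 2 the same place was listed without a gene name and so falls outside the rule. RNU1-4, a canonical U1 gene, falls outside it in every library, since the deposited type is that of an overlapping pseudogene. Its listed reads were 29.0 in the GFP library, 13.2 in GFP-(GR)50 replicate 1, 31.5 in the untransfected library, 5.5 in the GFP-(GP)10 library and 17.8 in GFP-(GR)50 replicate 2, the order of the other U1 genes.

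**Figure D1:**
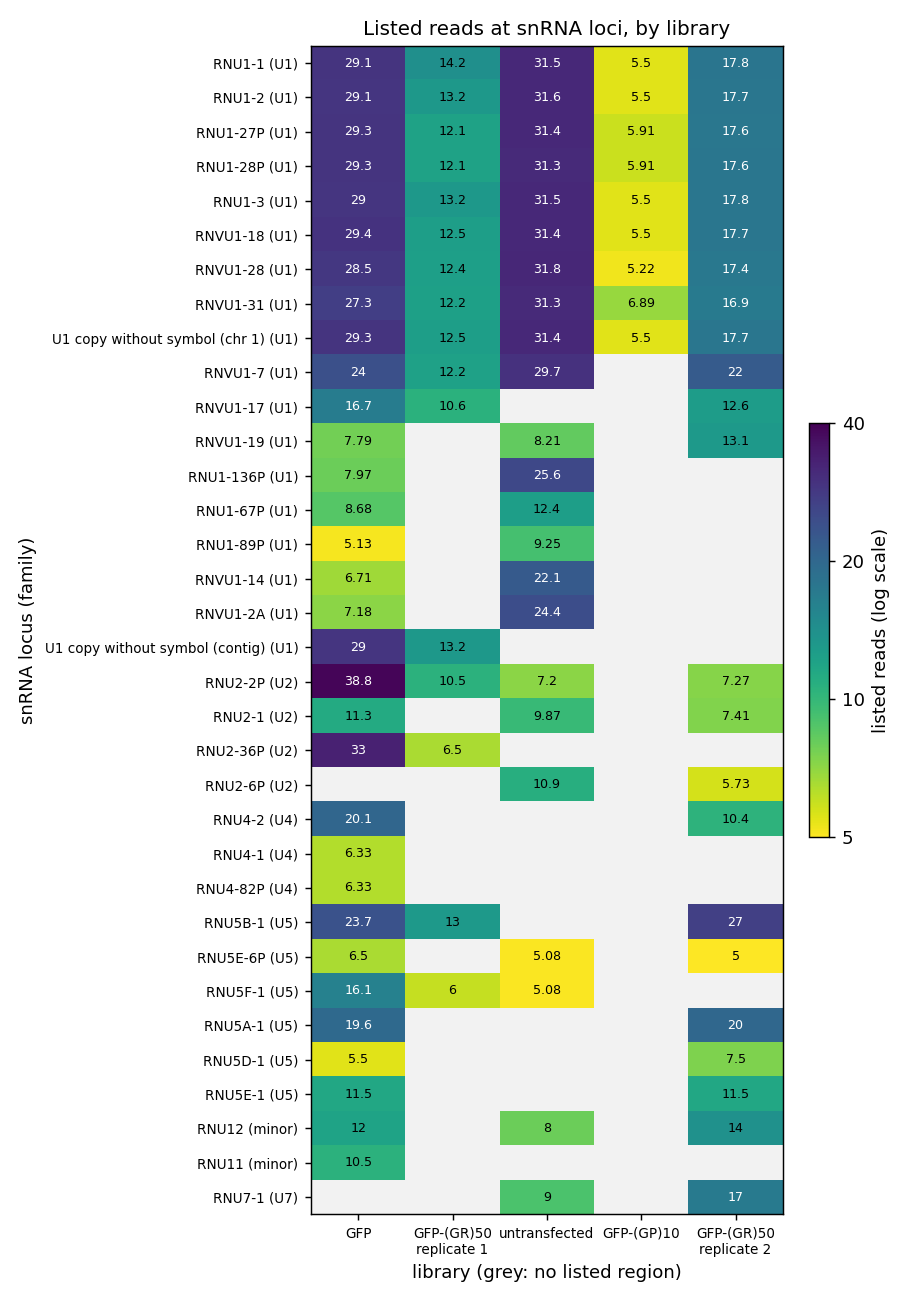
Listed reads (colour on a log scale, with the value printed) at 34 snRNA loci in the 5 libraries; grey means no region meeting the rule, and 1 contig copy of U1 was listed without a gene name in experiment 2. The 9 U1 loci listed in every library are nearly alike within each library, from 5.22 to 6.89 reads in GFP-(GP)10 up to 31.3 to 31.8 in the untransfected library, while the U4, U5, U12 and U7 rows are filled in part of the libraries.

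U2 was listed in every library except GFP-(GP)10, and most of its regions were one tandem array. On chromosome 17 between 43233736 and 43300233, minus strand, 13 copies that include RNU2-1 had a region each in GFP, the untransfected library and GFP-(GR)50 replicate 2. A copy had a median of 11.3 listed reads in GFP, 9.87 in the untransfected library and 7.41 in GFP-(GR)50 replicate 2, and their sums were 147, 128 and 95.7. GFP-(GR)50 replicate 2 was lowest, and the array was not listed in GFP-(GR)50 replicate 1. The 13 copies held 1 one-place read in GFP and none elsewhere, so they too stand for 1 measurement.

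RNU2-2P, an expressed U2 gene despite its symbol (chromosome 11, 62841604 to 62841809, minus strand, with WDR74 as a second same-strand name), had 38.8 listed reads in the GFP library, 10.5 in GFP-(GR)50 replicate 1, 7.20 in the untransfected library and 7.27 in GFP-(GR)50 replicate 2. GFP had the most, and the libraries of experiment 2 that listed it were alike. One-place reads there were 2, 3, 0 and 1. The pseudogene RNU2-36P was listed in experiment 1 alone, with 33.0 reads in the GFP library and 6.50 in GFP-(GR)50 replicate 1. The pseudogene RNU2-6P was listed in experiment 2 alone, with 10.9 reads in the untransfected library (10 one-place) and 5.73 in GFP-(GR)50 replicate 2 (5 one-place).

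U4, which holds U6 inactive until the spliceosome is activated, was listed in GFP and in GFP-(GR)50 replicate 2. RNU4-2 (chromosome 12, 120291759 to 120291903, minus strand) had 20.1 listed reads in GFP, 14 of them from one place, and 10.4 in GFP-(GR)50 replicate 2, 9 of them from one place. RNU4-1 and the pseudogene RNU4-82P were listed in GFP alone, with 6.33 reads each. Neither control of experiment 2 had a U4 region.

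U5, which aligns the exons in the active spliceosome, was resolved to single genes far more than U1 and U2: 84.5% to 100% of its reads mapped to one place in the 4 libraries that listed it. RNU5B-1 (chromosome 15, 65304678 to 65304795, plus strand) had 23.7 listed reads in the GFP library, 13 in GFP-(GR)50 replicate 1 and 27 in the replicate 2 library of GFP-(GR)50, with 21, 13 and 23 from one place. It was the U5 gene with the most reads in each of these libraries and had no region in the untransfected library or GFP-(GP)10. RNU5A-1 (chromosome 15, 65296059 to 65296167, plus strand) had 19.6 listed reads in the GFP library and 20 in GFP-(GR)50 replicate 2. RNU5E-1 had 11.5 in both, and RNU5D-1 had 5.5 and 7.5. These 3 genes also had no region in the untransfected library or GFP-(GP)10. So 4 of the 5 U5 genes were listed in GFP-(GR)50 replicate 2 and in neither control of its experiment. Of all loci of the 2 lists compared, 31.1% were in GFP-(GR)50 replicate 2 and not in the untransfected library. Against GFP-(GP)10 that share was 69.8%, and the share of all loci absent from both controls was not computed. Among snRNA loci the shares were 13.3% against the untransfected library and 74.3% against GFP-(GP)10. GFP, the control of experiment 1, listed all 5 U5 genes.

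The other U5 members did not repeat this. RNU5F-1 had 16.1 listed reads in the GFP library, 6 in GFP-(GR)50 replicate 1 and 5.08 in the untransfected library, and no region in GFP-(GR)50 replicate 2. The pseudogene RNU5E-6P had 6.50 in GFP, 5.08 in the untransfected library and 5 in GFP-(GR)50 replicate 2, at or near the minimum of the lists.

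The minor snRNA U12 and the histone snRNA U7 were read almost wholly from one place. RNU12 (chromosome 22, 42615242 to 42615393, plus strand) had 12 one-place reads in GFP, 8 in the untransfected library and 14 in GFP-(GR)50 replicate 2. RNU7-1 (chromosome 12, 6943826 to 6943879, plus strand) had 9 in the untransfected library and 17 in GFP-(GR)50 replicate 2. Both had more reads in GFP-(GR)50 replicate 2 than in the untransfected library, by low counts that are not scaled for depth. Both were absent from the GFP-(GR)50 replicate 1 list. RNU11 was listed in GFP alone, with 10.5 reads.

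The makeup of the listed snRNA reads thus differed among libraries, and it needs no denominator outside the snRNAs. It does depend on the minimum of 5 listed reads per region, as copies with few reads can leave a list. In GFP the 9 shared U1 loci had a median of 29.1 reads and the U2 array copies 11.3. The U1 median was 12.5 in GFP-(GR)50 replicate 1 and 5.5 in GFP-(GP)10, and neither listed the array. What part the minimum had in the makeup was not tested. U1 took 49.6% (45.9 to 53.2) of the listed snRNA reads in the GFP library and 80.7% (74.8 to 86.5) in GFP-(GR)50 replicate 1. In experiment 2 it took 70.8% (67.0 to 74.3) in the untransfected library, 100% (93.0 to 100) in GFP-(GP)10 and 48.2% (43.4 to 53.1) in GFP-(GR)50 replicate 2. The U1 share of the listed snRNA reads was thus higher with GFP-(GR)50 in experiment 1 and lower in experiment 2. In each case the difference was more than the counting intervals, which do not cover the effect of the minimum. Among one-place reads U1 took 20.7% (31 of 150) in the GFP library and 33.3% (11 of 33) in GFP-(GR)50 replicate 1. It took 48.6% (36 of 74) in the untransfected library and 21.5% (29 of 135) in GFP-(GR)50 replicate 2. GFP-(GP)10 had 2 such reads, all U1. Both directions are kept, but no intervals were computed for these shares. In GFP-(GR)50 replicate 1, 10 of the 11 reads were at RNVU1-7. With regions counted in place of reads both directions are also kept. The shares were 37.5% in GFP, 75% in GFP-(GR)50 replicate 1, 48.7% in the untransfected library and 34.3% in GFP-(GR)50 replicate 2.

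U5 took 12.0% of the listed snRNA reads in the GFP library, 10.2% in GFP-(GR)50 replicate 1, 1.65% in the untransfected library and 16.6% in GFP-(GR)50 replicate 2. For each U1 read there were 0.241 U5 reads in the GFP library, 0.126 in GFP-(GR)50 replicate 1, 0.0233 in the untransfected library and 0.345 in GFP-(GR)50 replicate 2. GFP-(GP)10 had no listed U5 region, so no ratio is given for it. The minimum of 5 listed reads per region bears on these ratios too. GFP-(GR)50 replicate 2 was thus above the untransfected library, and GFP-(GR)50 replicate 1 was below GFP. U2 reads per U1 read were 0.628 in the GFP library, 0.113 in GFP-(GR)50 replicate 1, 0.351 in the untransfected library and 0.528 in GFP-(GR)50 replicate 2, again with no listed region in GFP-(GP)10, and the order within each experiment was the same.

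**Figure D2:**
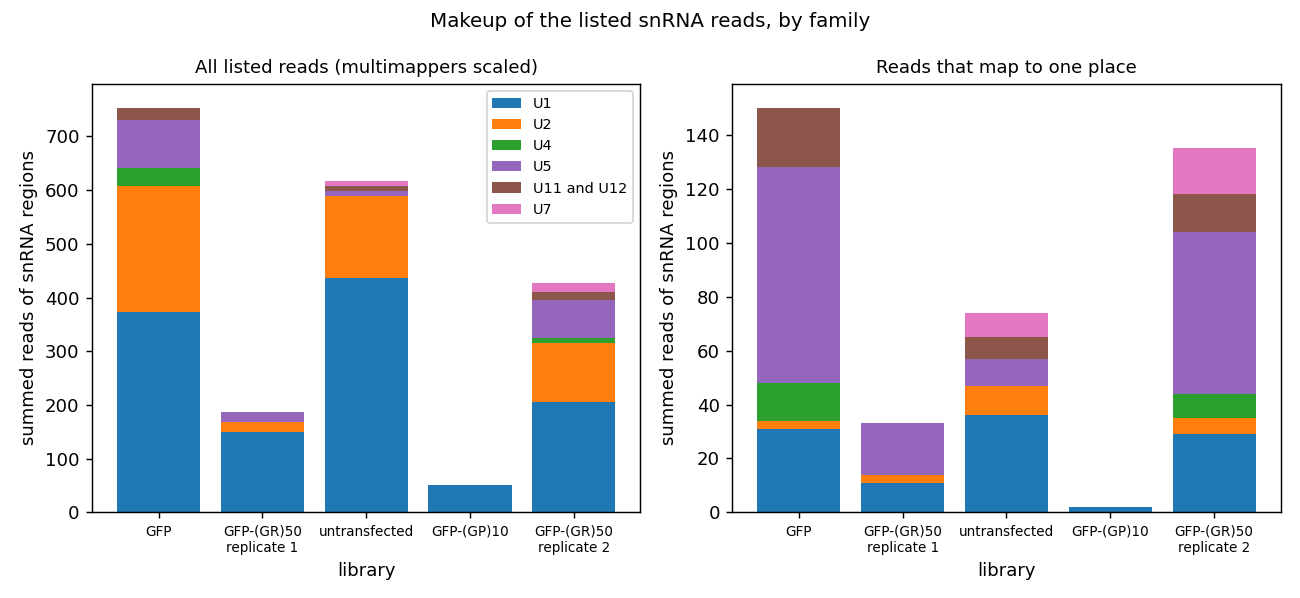
Summed reads of the snRNA regions (y axis) in each library (x axis), stacked by family, for all listed reads on the left and for reads that map to one place on the right. U1 is the largest family in every bar of the left panel, with 48.2% to 100% of the reads, while on the right U5 is the largest family in GFP and in both GFP-(GR)50 libraries.

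Next, the snRNA loci were set against all loci of the same lists, as counts with no test. In experiment 1 no snRNA locus was listed with GFP-(GR)50 and not with GFP, and in experiment 2, 5 of the 6 listed with GFP-(GR)50 and not in the untransfected library were U4 and U5 genes. Between GFP-(GR)50 replicate 1 and GFP, 48 snRNA loci were listed: 16 in both, 32 (66.7%) in GFP alone and 0 in GFP-(GR)50 replicate 1 alone. Over all 519 loci of these lists, 69.9% were in GFP alone and 15.6% in GFP-(GR)50 replicate 1 alone. Of the 16 shared snRNA loci, 0 had more listed reads in GFP-(GR)50 replicate 1, beside 44% of the 75 shared loci of all kinds. Since 12 of the 16 are U1 copies that share reads, they are far fewer measurements than loci.

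Between GFP-(GR)50 replicate 2 and the untransfected library, 29 of 45 snRNA loci were listed in both. GFP-(GR)50 replicate 2 alone listed 6 (13.3%), RNU4-2, RNU5A-1, RNU5B-1, RNU5D-1, RNU5E-1 and RNVU1-17, beside 31.1% of all 1892 loci. The untransfected library alone listed 10 (22.2%), beside 58.1% of all loci. Of the 29 shared, 4 had more listed reads in GFP-(GR)50 replicate 2 (RNVU1-19, RNU2-2P, RNU12 and RNU7-1), beside 37.4% of the 203 shared loci of all kinds. The other 25 are mainly the U1 and U2 copies.

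Between GFP-(GR)50 replicate 2 and GFP-(GP)10, 9 of 35 snRNA loci were listed in both, and 26 (74.3%) in GFP-(GR)50 replicate 2 alone, close to the 69.8% of all 964 loci. Of the 26, 15 were U2, 5 were U5, 3 were U1, and U4, U12 and U7 had 1 each. GFP-(GP)10 alone listed 0, beside 17.8% of all loci. The 9 shared loci are the U1 copies named above, and all had more listed reads in GFP-(GR)50 replicate 2, beside 67.2% of the 119 shared loci of all kinds. No replicate test is possible in these comparisons, with 1 library on each side.

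The U1 and U5 regions at genes mostly ran to the 3′ end of the RNA, and the U2 regions did not end there. Set against RefSeq gene ends, with a precision of 1 to 2 nt, 51 of the 72 regions at snRNA genes ended within 3 nt of the 3′ end. Most of the 51 are U1 regions, whose copies share reads. No U2 region at a gene ended that near, with ends from 32 nt short of the 3′ end to 54 nt past it. The 5′ ends differed by library. On RNU1-1, an RNA of 164 nt, the region started 1 nt before the 5′ end in GFP, 5 nt before it in GFP-(GR)50 replicate 1 and 2 nt inside it in GFP-(GR)50 replicate 2. It started 29 nt inside in the untransfected library and 22 nt inside in GFP-(GP)10. Both GFP-(GR)50 libraries and GFP thus reached the 5′ end of U1, the stretch that pairs with splice sites, and the other controls did not.

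The other U1 genes mostly followed. In GFP-(GR)50 replicate 1, though, RNU1-1 had the start furthest upstream, and the median over the 6 U1 genes listed everywhere was 2 nt inside. Regions reached within 5 nt of the 5′ end in 7 of 11 U1 genes in the GFP library, 7 of 8 in GFP-(GR)50 replicate 1, 0 of 10 in the untransfected library, 0 of 6 in the GFP-(GP)10 library and 7 of 9 in GFP-(GR)50 replicate 2. On the 6 U1 genes listed everywhere, the untransfected library had 31.3 to 31.8 listed reads per gene and did not reach the 5′ end. GFP-(GP)10 did not reach it either, at 5.22 to 6.89 reads per gene. The library with GFP alone reached it, at 27.3 to 29.4 reads per gene. Both GFP-(GR)50 libraries also reached it, replicate 1 at 12.3 to 14.2 reads per gene and replicate 2 at 16.9 to 17.8. Whether the number of reads bears on the 5′ reach was not tested. On those 6 genes the regions of the untransfected library started 28 to 46 nt inside and those of GFP-(GP)10 21 to 46 nt inside. The 6 genes share reads, so within a library they are close to 1 observation.

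U2 regions differed most at the 3′ end. On RNU2-1, an RNA of 188 nt, the region started 0 nt from the 5′ end in GFP, 2 nt inside it in the untransfected library and 2 nt before it in GFP-(GR)50 replicate 2. It ran 11 nt past the 3′ end in GFP, stopped 29 nt short of it in the untransfected library and ran 54 nt past it in GFP-(GR)50 replicate 2. The widths of the 13 array copies had medians of 198 bp in GFP, 156 bp in the untransfected library and 243 bp in GFP-(GR)50 replicate 2 (ranges 182 to 198, 150 to 156 and 236 to 243). The copies share reads, so within a library they are close to 1 observation, and these ranges are not a spread between libraries. RNU2-2P, of 191 nt, did not repeat this: its region stopped 30 nt short of the 3′ end in GFP-(GR)50 replicate 2 and 32 nt short in the untransfected library, and ran 15 nt past it in GFP. In GFP-(GR)50 replicate 1 it started 40 nt inside and stopped 4 nt short.

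On U5 genes the regions of GFP-(GR)50 replicate 1 were the shortest. On RNU5B-1, of 117 nt, its region spanned the last 28 nt, while that of GFP started 1 nt and that of GFP-(GR)50 replicate 2 started 38 nt from the 5′ end. On RNU5F-1, of 118 nt, its region spanned 31 nt from position 86, while those of GFP and the untransfected library started at 34 and 20 nt. RNU5A-1 was covered from 25 nt in the GFP library and from 8 nt in GFP-(GR)50 replicate 2, to the 3′ end in both. RNU4-2, of 145 nt, was covered from 7 nt in the GFP library and whole in GFP-(GR)50 replicate 2. RNU12, of 150 nt, was covered to its 3′ end in GFP-(GR)50 replicate 2 and the untransfected library and stopped 33 nt short of it in GFP.

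**Figure D3:**
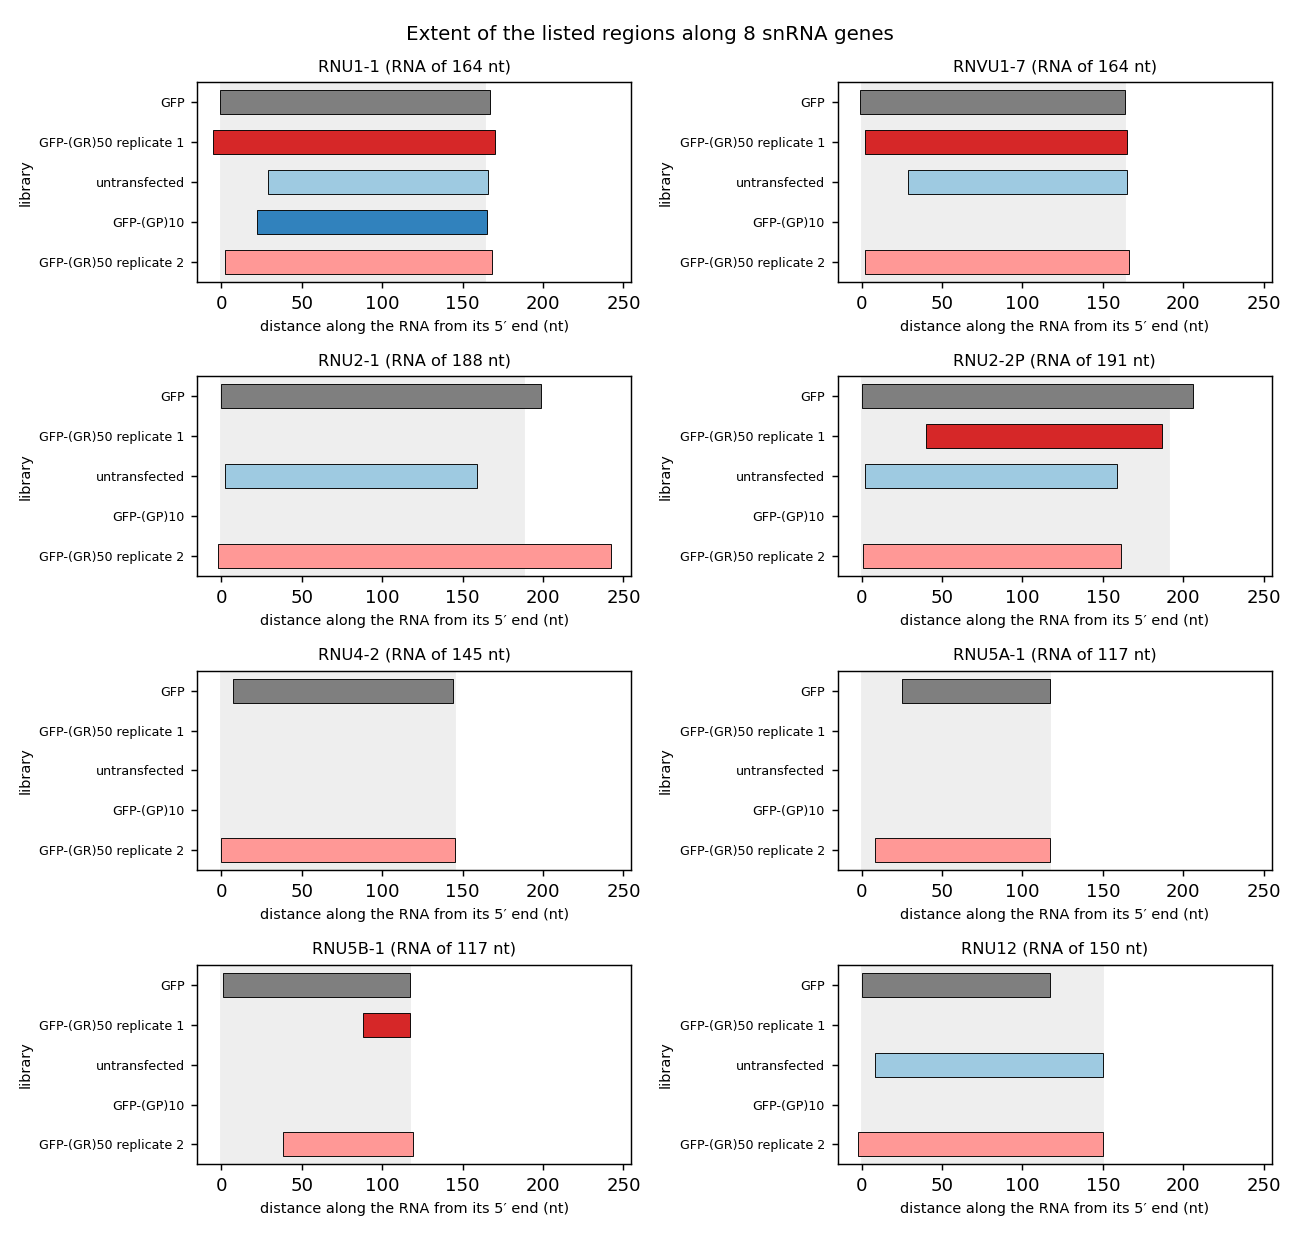
Extent of the listed region along 8 snRNA genes, in nt from the 5′ end of the RNA (x axis), with 1 bar per library (y axis) and the RNA itself shaded; a missing bar means no listed region. On RNU1-1 the bars of GFP and both GFP-(GR)50 libraries reach the 5′ end and those of the untransfected library and GFP-(GP)10 start 29 and 22 nt inside, and on RNU2-1 the GFP-(GR)50 replicate 2 bar runs 54 nt past the 3′ end.

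How large a part of the recovered RNA was snRNA depended on which other reads were counted, so 3 shares are given for each comparison. Among all listed reads outside annotated rRNA, snRNA took 11.4% (9.88 to 13) in GFP-(GR)50 replicate 1 and 6.83% (6.37 to 7.32) in GFP, a log2 ratio of 0.74 (0.52 to 0.96). Among one-place reads outside rRNA the shares were 14.6% (10.3 to 19.9) and 2.59% (2.19 to 3.03), a ratio of 5.64. Both place GFP-(GR)50 replicate 1 above GFP. With tRNA reads also left out, which were 8407 in the GFP library and 36.5 in GFP-(GR)50 replicate 1, the shares were 11.7% and 28.8%, the other way round. Among one-place reads, where tRNA had 4284 in the GFP library and 25 in the GFP-(GR)50 replicate 1 list, leaving it out gave 16.4% and 9.91%, a ratio of 1.66. GFP-(GR)50 replicate 1 also had 1054 listed reads in regions with no rRNA annotation around the rRNA repeats, on the short arm of chromosome 21 and on the contigs GL000220.1 and KI270733.1. With those counted as rRNA (the wider rRNA rule), its snRNA share was 32.2% and that of GFP was 6.88%.

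In experiment 2, snRNA took 1.30% (1.18 to 1.43) of the listed reads outside annotated rRNA in GFP-(GR)50 replicate 2, 4.83% (4.47 to 5.22) in the untransfected library and 1.62% (1.20 to 2.11) in GFP-(GP)10. The log2 ratios were -1.89 (-2.06 to -1.71) and -0.31 (-0.73 to 0.10). The reads outside rRNA include an unannotated extra contig, which held 25749 listed reads in GFP-(GR)50 replicate 2, 2461 in the untransfected library and 1115 in GFP-(GP)10. Of these reads, 99.96%, 99.4% and 99.5% lay in regions that resemble a listed rRNA region of that library, within 5 bp in width and 5% in reads. With that contig counted as rRNA the shares were 6.11% (5.56 to 6.70), 5.99% (5.54 to 6.46) and 2.50% (1.85 to 3.25), and the log2 ratios turned to 0.03 (-0.14 to 0.20) and 1.29 (0.88 to 1.70). Among one-place reads the shares were 2.81% (2.36 to 3.32), 0.885% (0.695 to 1.11) and 0.138% (0.0167 to 0.497), with log2 ratios of 1.67 (1.26 to 2.07) and 4.35 (2.34 to 6.36), the last resting on 2 reads in GFP-(GP)10. The snRNA share of GFP-(GR)50 replicate 2 was thus below, level with or above that of the untransfected library, by the reads counted.

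Over the 5 libraries, the snRNA share outside annotated rRNA was 6.36% ± 7.15 (SD, n = 2) with GFP-(GR)50 and 4.43% ± 2.63 (SD, n = 3) in the controls. The difference of 1.93 percentage points was smaller than the spread among the GFP-(GR)50 libraries (two-sided exact permutation test, p = 0.8), and without GFP-(GR)50 replicate 1 it was -3.12 points. With the extra contig counted as rRNA the means were 8.76% ± 3.75 (SD, n = 2) and 5.11% ± 2.3 (SD, n = 3), and the groups overlapped (two-sided exact permutation test, p = 0.4). Among one-place reads the means were 8.71% ± 8.34 (SD, n = 2) and 1.20% ± 1.26 (SD, n = 3), and the groups did not overlap (two-sided exact permutation test, p = 0.2). That is the smallest p that 2 against 3 libraries can give, so no difference could pass 0.05. Over all listed reads the groups did not overlap either, but GFP-(GR)50 was lower. The means were 0.324% ± 0.008 (SD, n = 2) and 1.96% ± 1.11 (SD, n = 3) (two-sided exact permutation test, p = 0.2). Among one-place reads outside rRNA and tRNA the groups overlapped (two-sided exact permutation test, p = 0.4). With all listed one-place reads as the denominator they overlapped too (two-sided exact permutation test, p = 0.6). With experiment as a block the differences were 0.87 points outside annotated rRNA (exact permutation within experiments, p = 0.833) and 6.46 points among one-place reads (p = 0.167, the smallest that its 6 arrangements can give). In experiment 1 alone the one-place shares lay at 14.6% and 2.59%, and in experiment 2 at 2.81% against 0.885% and 0.138%, so GFP in experiment 1 and GFP-(GR)50 replicate 2 differed by less than their counting intervals.

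**Figure D4:**
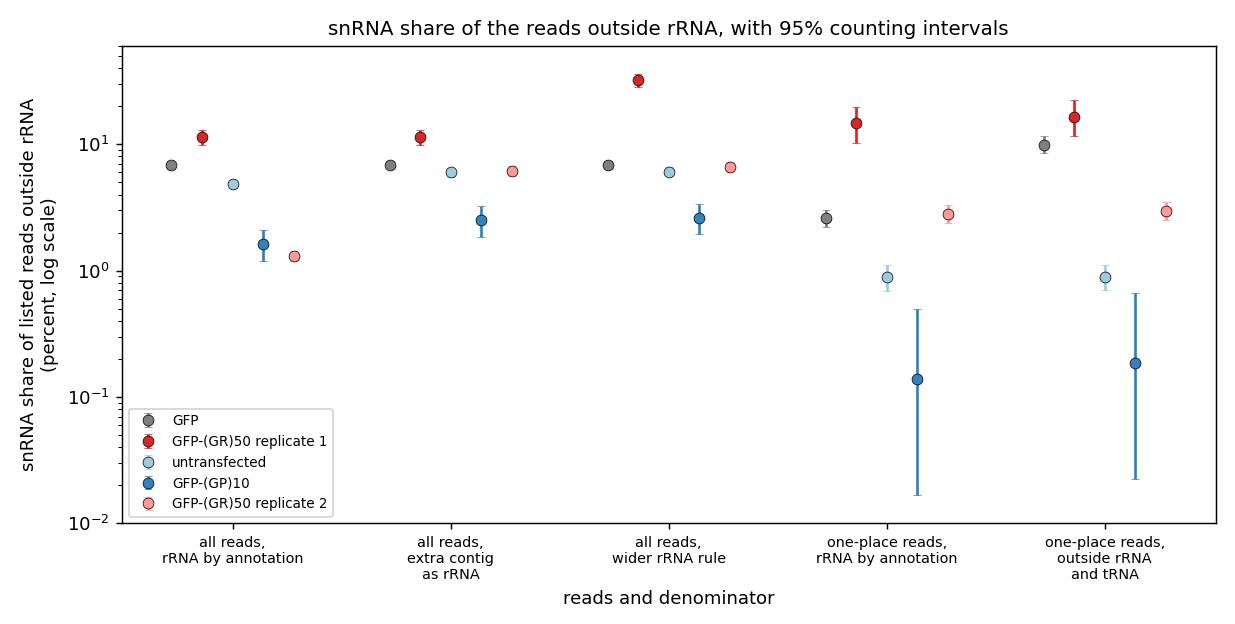
snRNA share of listed reads outside rRNA (percent, log scale) in the 5 libraries under 5 ways of counting, with exact 95% counting intervals. GFP-(GR)50 replicate 2 lies below the untransfected library with rRNA by annotation (1.30% against 4.83%), beside it with the extra contig as rRNA (6.11% against 5.99%) and above it among one-place reads (2.81% against 0.885%).

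Beside 7SK RNA, the other abundant nuclear small RNA of these lists, the snRNA reads were fewest in the GFP-(GR)50 libraries. 7SK restrains the elongation factor P-TEFb, and its loci gave 44.7 listed reads in the GFP library, 136 in GFP-(GR)50 replicate 1, 15.3 in the untransfected library, 10.9 in the GFP-(GP)10 library and 642 in GFP-(GR)50 replicate 2. For each 7SK read there were 16.8 snRNA reads in the GFP library, 1.37 in GFP-(GR)50 replicate 1, 40.3 in the untransfected library, 4.72 in the GFP-(GP)10 library and 0.665 in GFP-(GR)50 replicate 2. The ratio was lower in each GFP-(GR)50 library than in every control, and these libraries had the most 7SK reads. That order over both experiments rests on counting all 7SK copies. At the RN7SK gene itself the listed reads were 28.4 in the GFP library, 36.4 in GFP-(GR)50 replicate 1, 15.3 in the untransfected library, 10.9 in the GFP-(GP)10 library and 163 in GFP-(GR)50 replicate 2. Per read of that gene there were 5.12 snRNA reads in GFP-(GR)50 replicate 1 against 26.5 in GFP, and 2.61 in GFP-(GR)50 replicate 2 against 40.3 and 4.72 in its controls. Replicate 1 is thus below its own control but not below GFP-(GP)10. By listed reads, the first snRNA region was at rank 90 of 472 for GFP and 82 of 183 for GFP-(GR)50 replicate 1. It was at rank 98 of 805 in GFP-(GR)50 replicate 2, 42 of 1339 in the untransfected library and 162 of 348 in GFP-(GP)10. Members above the median of their own list were 1 of 16 in GFP-(GR)50 replicate 1, 19 of 48 in GFP, 33 of 35 in GFP-(GR)50 replicate 2, 36 of 39 in the untransfected library and 1 of 9 in GFP-(GP)10.

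Few genes for proteins that work with snRNAs had a listed region, and the same held for protein-coding names at large. Of 20 Sm and LSm proteins, 1 (LSM3, in a repeat element of the gene) was listed in all 3 libraries of experiment 2, at 17.9 reads in the untransfected library, 9.83 in the GFP-(GP)10 library and 12.4 in GFP-(GR)50 replicate 2. Of 38 other snRNP and spliceosome proteins, PRPF3, a protein of the U4/U6 particle, had an exon region of 5 reads in GFP-(GR)50 replicate 2. Of 45 genes for snRNA synthesis and snRNP assembly, INTS14 (in an intron) and STRAP (in a repeat element) had 5 reads each in the untransfected library. Neither GFP-(GR)50 library listed any of the 45. Beside these, 0.184% of 20056 protein-coding names had a region in GFP-(GR)50 replicate 1, 1.64% in GFP-(GR)50 replicate 2, 0.374% in GFP, 2.86% in the untransfected library and 0.563% in GFP-(GP)10.

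Of 21 other small RNA genes (RNU7-1 left out of the list), 10 were listed in the GFP library, 3 in GFP-(GR)50 replicate 1, 2 in the untransfected library, 2 in the GFP-(GP)10 library and 8 in GFP-(GR)50 replicate 2. RMRP, the RNA of RNase MRP, had 17 listed reads in the GFP library, 8 in GFP-(GR)50 replicate 1 and 31.5 in the replicate 2 library of GFP-(GR)50, and RPPH1, the RNA of RNase P, had 25 in GFP-(GR)50 replicate 2 alone. SNORD3A, the U3 RNA of rRNA processing, had 18.7, 5.34, 13.6, 8.81 and 29.8 listed reads in GFP, GFP-(GR)50 replicate 1, the untransfected library, GFP-(GP)10 and GFP-(GR)50 replicate 2. RN7SL1 and RN7SL2, the RNA of the signal recognition particle, SNORD118 and SCARNA2 were listed in GFP and GFP-(GR)50 replicate 2 at 5.62 to 13.1 reads. Like RNU4-2 and RNU5A-1, these 4 had a region in GFP, in GFP-(GR)50 replicate 2 and in no other library. The Y RNAs RNY1, RNY3 and RNY4 were listed in GFP alone, at 32.7, 7.28 and 32.8 reads.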

How the data were processed

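CLIP-Seq regions of 5 HEK-293 libraries were used. Per the submitters' processing notes, the authors used featureCounts 2.0.2, bedtools 2.30.0, UMI-tools 1.1.2 and Novoalign 4.03.03 with GRCh38.p13 and hg38. The tools' roles, the region caller and the multimapper scaling were not given in the sources used here. Per the file headers, one deposited column is the count of uniquely mapping reads (one-place reads), an expected count in GFP-(GR)50 replicate 2, where 6 values are not whole, and the other is an expected count (estimated count) that adds multimapping reads scaled by the authors. Neither is normalised for depth, and no library depth was used here. Coordinates printed for a locus run from the lowest start to the highest end of its regions over the libraries. Whether the file coordinates count from 0 or 1 is not stated.

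Loci join regions that overlap by at least 1 bp on 1 strand. Gene types and ends came from RefSeq (GRCh38.p14), matched by position for 40 of 54 loci. Shares have exact Clopper-Pearson 95% intervals on rounded reads, and log2 ratios have Katz intervals (pandas 2.3.3, scipy 1.17.1). The functions were tested on simulated data. GFP is the control of GFP-(GR)50 replicate 1, and GFP-(GP)10 and untransfected cells are those of replicate 2. The labels call the experiments independent; the exact permutation test measures only the spread between libraries. Named were the snRNA genes with a region, the 3 members of each family with the most listed reads in each library, members with one-place reads in 2 or more libraries, and genes of 4 lists with a region in a GFP-(GR)50 library; RNU1-4, INTS14, STRAP and the Y RNAs were named after their values were seen. Members and lists were chosen with earlier results of these data known. Alternatives varied the reads, denominator, minimum of 10 reads, members and libraries. No snRNA sequence was used here.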

Additional observations from a re-analysis of the deposited data

Results flagged for a closer look

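The snRNA share of listed reads outside annotated rRNA moved in opposite directions in the 2 experiments. The log2 ratio was 0.74 for GFP-(GR)50 replicate 1 over GFP, -1.89 for GFP-(GR)50 replicate 2 over untransfected cells and -0.31 for GFP-(GR)50 replicate 2 over GFP-(GP)10, the last with a counting interval that includes 0. The difference between the experiments was not tested, since each side is 1 library. The unannotated contig described above was present in experiment 2 alone; with it counted as rRNA the log2 ratios of experiment 2 were 0.03 and 1.29, and among one-place reads all 3 were above 0, at 2.50, 1.67 and 4.35.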

How the results depend on the processing

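For GFP-(GR)50 replicate 1 over GFP, the log2 ratio of 0.74 turned to -2.90 over all listed reads, -1.30 outside rRNA and tRNA, -0.65 without U1 and -0.23 for one-place reads over all listed ones. It was 2.50 for one-place reads, 1.18 over the top 183 regions of each list, 1.26 where the snRNA is the sole name, 1.1 at RefSeq genes, 2.23 with the wider rRNA rule, 1.04 with the best region of each family and 2.54 for one-place reads with the wider rRNA rule. For GFP-(GR)50 replicate 2 over untransfected cells, -1.89 turned to 1.67 for one-place reads, 0.77 for these over all listed ones, 1.74 for these outside rRNA and tRNA, 1.67 for these with the wider rRNA rule, 0.030 with the extra contig as rRNA and 0.12 with the wider rRNA rule. It was -3.10 over all listed reads, -2.71 at 10 or more reads, -2.21 over the top 805 regions, -1.54 at RefSeq genes, -1.06 without U1 and -0.76 with the best regions. For GFP-(GR)50 replicate 2 over GFP-(GP)10, -0.31 turned to 4.35, 3.48, 4.01 and 4.35 under the same 4 one-place settings, 1.29 with the contig, 1.34 with the wider rule and 0.46 with the best regions. It was -1.11 over all listed reads and -0.98 with the sole name, and no ratio exists at 10 or more reads or without U1, where GFP-(GP)10 has no read.

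The difference of 1.93 points between GFP-(GR)50 and control means turned to -1.64 over all listed reads, -5.41 outside rRNA and tRNA and -0.18 without U1. It was 14.2 with the wider rRNA rule, 7.5 for one-place reads, 7.74 for these with the wider rule, 6.03 for these outside rRNA and tRNA, 3.66 with the extra contig as rRNA, 0.69 with the best regions, 0.63 for one-place reads over all listed ones and 0.87 with experiment as a block. Leaving out 1 library gave -3.12 (without GFP-(GR)50 replicate 1) to 6.99 (without GFP-(GR)50 replicate 2). The U1 share moved to 37.5% in GFP, 48.7% in untransfected cells and 34.3% in GFP-(GR)50 replicate 2 by regions, and to 20.7%, 48.6% and 21.5% by one-place reads, with 33.3% in GFP-(GR)50 replicate 1. Beyond the reads and regions that each setting leaves out, the cause was not tested. Counting snRNA repeat elements changed no value, as no such region was listed. The one-place settings with other denominators, the wider rRNA rule, the best-region setting the experiment block and the controls left out were chosen after seeing the data. No paired analysis was possible because the labels give the controls no replicate number; experiment was used as a block instead. Low read numbers limit single genes: one-place reads reached at most 23 at any snRNA locus.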
